A study of Mus musculus with 66 samples.

Results

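Solute carrier genes, the genes whose annotated symbol begins with Slc and a digit, were followed through the postnatal growth of the mouse testis. Of 310 such genes named by a probe set that carries 1 gene, 253 were measured, which required that 2 or more of the type's 22 arrays show a signal of 50 or higher, and 57 were not. They are part of 13472 genes measured in the same way. Total RNA of whole testes of BL/6-129 mice, extracted with TRIzol, had been hybridised at postnatal days 0, 3, 6, 8, 10, 14, 18, 20, 30, 35 and 56. Each day holds 2 samples, told apart by number, and 3 array types (A, B and C) were used for each, 66 arrays in all. No treatment or mutation separates the groups. Age is the factor the labels give, and they do not say whether a sample was 1 animal or a pool. P-values therefore measure the spread between these samples, which may be technical. The Slc genes lay on all the types, 85 on type A, 101 on B and 67 on C, and each was represented by its brightest probe set.

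Solute carriers are membrane proteins that move sugars, organic acids, amino acids, ions, metals, nucleotides and vitamins down a gradient or against it, coupled to another solute. In the testis they matter because Sertoli cells close off the germ cells behind a tight barrier: from pachytene spermatocytes on, a germ cell depends on what Sertoli cells take up from the blood and pass on, above all lactate. Sertoli cells import glucose and release lactate, spermatocytes and spermatids burn lactate, and sperm also use hexoses for motility.

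Values are signal intensities on a linear scale that the authors had set to a common mean, and changes are log2 change ± SE of log2(signal + 16), the later day minus the earlier. A gene is said to have risen or fallen where limma gave an adjusted p under 0.05 over all 13472 genes and the change was at least 2-fold. The added 16 understates changes of dim genes. A signal of under 50 is close to the floor of these arrays, and folds against such signals are sizes on the shifted scale. In whole testis, fewer cells of a type and less RNA per cell cannot be told apart. The lists of stage markers moved over the same days. The summed signal of 8 spermatocyte markers was 27270 to 27470 in the day 56 samples and 564.8 to 712.5 in those of day 0, and 7 of them rose. That of 8 round spermatid markers was 12830 to 17200 at day 56 and 167.7 to 325.8 at day 0, with 7 risen, and that of 8 elongating spermatid markers was 57250 to 63860 at day 56 and 406.9 to 469.9 at day 0, with all 8 risen. That of 10 Sertoli markers was 2393 to 2969 at day 56 and 8745 to 8954 at day 0, and 7 of them fell, while Cldn11, a gene of the Sertoli barrier, rose (179 at day 56 and 66.6 at day 0). No measured marker was at 0. The part of this change of cell make-up in the results on the carriers was not tested.

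The samples of a day correlated at 0.78 to 0.976 across probe sets. The lowest values were at days 0 and 20 on types A and B, 0.889 and 0.896 on A and 0.804 and 0.824 on B, and at days 0 and 3 on type C, 0.78 and 0.792. At day 20 the red cell gene Hba-a1 read 4999 in sample 1 and 2142 in sample 2, and at day 0 it read 8277 and 4595. The 3′ actin control was brighter in sample 2 on type A and in sample 1 on types B and C at every day up to 20, so a number need not mark the same RNA on all types. From day 30 on the samples were closer on this control, for example 11725 in sample 1 and 11443 in sample 2 at day 30 on type C, where they were 17291 and 5285 at day 14. The control thus changes its pattern between days 20 and 30, the days between which 10 lasting rises began, and its part in them was not tested. Each gene was read on 1 type. Results that rest on days 0 and 20 are given with and without 1 sample of both days below.

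Over all 11 days 129 of the 253 Slc genes (51%) passed limma's moderated F-test, where 57% of all genes did. Set against day 0, 26 Slc genes had risen at day 56, 10.3% of them where 15.9% of all genes had, and 57 had fallen, 22.5% where 21.1% of all genes had. The median log2 change was -0.27, against -0.21 over all genes. Called or not, the 2 samples of day 56 lay above both of day 0 in 54 Slc genes (21.3%, and 28.4% of all genes) and below both in 103 (40.7%, and 41.5% of all genes), and the 83 called genes are among these. Without sample 1 of days 0 and 20, 70 of the 83 calls remained, and without sample 2 of both days 69 did. The filter on signal matters for such counts: 118 of the 253 genes reached 50 on all 22 arrays and 32 of these were called, while 18 genes reached it on only 2 to 4 arrays. In 10 of the 26 risers both day 0 signals were below 50, and in 17 of the 57 that fell both day 56 signals were.

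**Figure D1:**
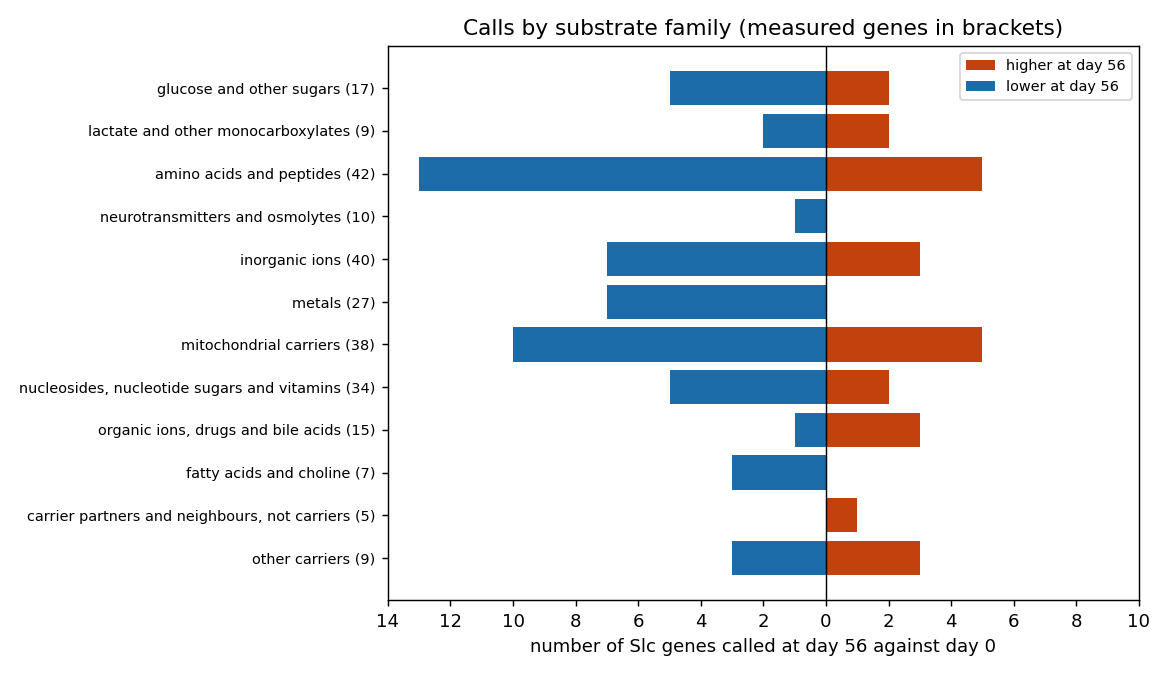
Number of measured Slc genes called at day 56 against day 0 in each of 12 substrate families, with those higher at day 56 to the right of 0 and those lower to the left, and the number of measured genes in brackets. Amino acid carriers, the largest family, have 5 higher and 13 lower of 42, and metal carriers have 7 lower and none higher of 27. Each gene is read on its brightest probe set. Of all genes 15.9% were higher and 21.1% lower.

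From day 0 to 8 the taurine, glutamine and fatty acid carriers Slc6a6, Slc38a1 and Slc27a3 fell and Slc7a6 rose, 3 falls where 1.24% of all genes fell and 1 rise where 1.37% of all genes rose. These few calls rest on single samples: no fall was called without sample 1 of day 8, without either sample of day 10, or without sample 2 of day 30, and the rise was lost without sample 1 of day 8. From day 8 to 14 only Slc1a6 was called (1 fall, background 0.289%, and no rise, background 1.13%). From day 14 to 20, when meiosis of the germ cells runs, 13 rose and 17 fell, where 7.41% of all genes rose and 8.36% fell. The split depends on the scaling: with each array scaled to its median, 15 rose and 8 fell, and the median change of all genes in this window was 0.10 in place of -0.11. Only 4 falls were called without sample 2 of day 14. From day 20 to 35, when spermatids fill the tubules, 10 rose (background 6.06%) and 8 fell (background 4.3%), with 4 falls without sample 1 of day 35 and 5 without sample 2. From day 35 to 56 none of the 253 was called, as none of all 13472 genes was (background 0 both ways), although 19 Slc genes, and 1235 of all genes, had an unadjusted p under 0.05 in limma.

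Against day 0 the calls built up with age. No Slc gene was called at day 3 (background 0.00742% higher, 0.0223% lower) or at day 6 (0.401% and 0.327%). At day 14, 12 were higher (background 5.62%) and 10 lower (4.94%), and at day 18 these were 18 (10.8%) and 25 (11.1%). At day 20, 21 were higher (12%) and 29 lower (14%), at day 30 they were 27 (15.7%) and 49 (20.2%), and at day 35 they were 29 (15.9%) and 47 (21%). The counts of higher genes are, as shares of 253, below those of all genes from day 14 on, and that difference was not tested. All of these comparisons share the day 0 samples.

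A rise over day 0 that then held to day 56 began by day 8 in 1 Slc gene (background 0.334%), by day 10 in 1 (0.386%), by day 14 in 3 (1.94%), by day 18 in 7 (4.7%), by day 20 in 1 (1.03%), by day 30 in 10 (4.83%), by day 35 in 0 (0.468%) and by day 56 in 3 (2.03%). Lasting falls began by day 8 in 1 (0.609%), by day 10 in 1 (0.765%), by day 14 in 6 (2.24%), by day 18 in 9 (4.23%), by day 20 in 5 (2.73%), by day 30 in 13 (4.77%), by day 35 in 3 (1.41%) and by day 56 in 19 (4.12%). The last of these make up 7.51% of the Slc genes and rest on day 56 alone.

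**Figure D2:**
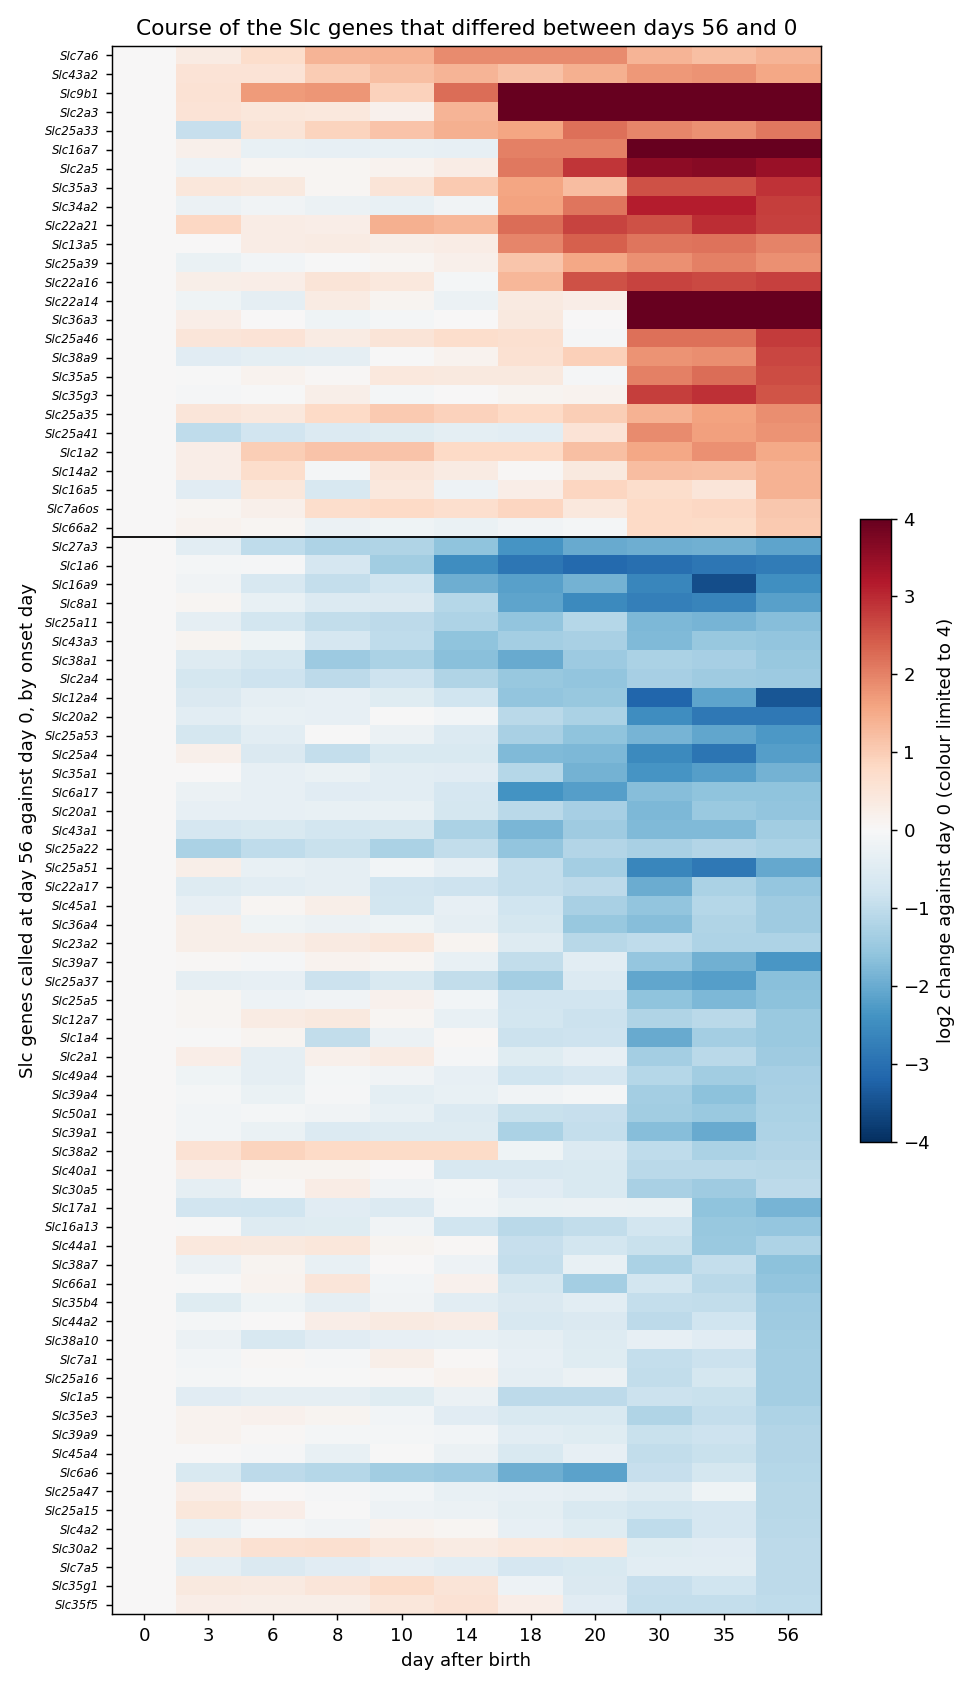
Log2 change against day 0 at each of the 11 days for the 83 Slc genes called at day 56, risers above the line and those that fell below it, each ordered by the day from which the call held. Rises begin mostly at days 18 and 30, and the falls are spread over days 8 to 56.

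Among 17 sugar carriers 2 had risen at day 56 and 5 had fallen, where 15.9% of all genes had risen and 21.1% had fallen. Slc2a3, a facilitated glucose carrier of high affinity, best known from neurons and sperm, gave signals of 1589 and 2154 at day 56, against 44.2 and 62 at day 0 (4.77 ± 0.35, adjusted p = 7.15e-09). Its day means were 53.1, 83.9, 77.5, 75.6, 61.8, 159.7, 1977, 2463, 2804, 2598 and 1871 over the 11 days. The samples split at the step: both of day 14 stayed under 200, at 173 and 146, and those of day 18 were 1169 and 2784 and those of day 20 1628 and 3298. The change from day 14 to 20 was 3.74 ± 0.35, adjusted p = 2.39e-06, and a smaller rise was already called at day 14 against day 0 (1.35 ± 0.35, adjusted p = 0.0152). A probe set on type A and one on type C rose as well at day 56, by 4.02 and 2.91 on the log2 scale, while a dim one on type C changed by -0.16.

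Slc2a5, the fructose carrier, was called from day 18 on and read 429 and 527 at day 56, against 15.7 and 47.7 at day 0 (3.45 ± 0.45, adjusted p = 6.25e-06). Its 2 samples of day 18 differed, at 93.7 and 320.3, and those of day 20 were 362 and 267. Other probe sets of Slc2a5 changed by 1.59 and 0.27. Slc2a8, an intracellular hexose carrier abundant in testis, was called higher at days 30 and 35 only, with 276 and 305 at day 35, against 97.4 and 123 at day 0 (1.28 ± 0.26, adjusted p = 0.000573). At day 56 it was 176 and 206, a change of 0.72 that did not reach 2-fold.

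Slc2a1, the glucose carrier of red cells and of Sertoli cells, ran the other way. It gave 8.1 and 7.6 at day 56, against 71.4 and 30.3 at day 0 (-1.42 ± 0.34, adjusted p = 0.00216). Its means stayed between 30.8 and 63.8 up to day 20 and were 8.6, 14.2 and 7.85 at days 30, 35 and 56. The call was lost without sample 1 of days 0 and 20. Slc2a4, the insulin-responsive glucose carrier, was dim throughout, was called lower from day 14 on and was at 12.2 and 8.3 at day 56, against 52.8 and 57.4 at day 0 (-1.44). These day 0 signals are the only 2 that reached 50, so the gene was measured only through the day where it is high. Its fall was thus favoured by the filter, and the call at day 56 was lost with a constant of 64. Slc45a1, Slc45a4 and Slc50a1 also fell, by 1.44, 1.16 and 1.25 on the log2 scale, with the call of Slc45a4 lost under scaling to the median. Slc5a2, the sodium-coupled glucose carrier of kidney, was at 447 and 488 at day 56, against 344 and 455 at day 0, and did not pass the test.

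Of 9 monocarboxylate carriers 2 rose and 2 fell at day 56 (15.9% and 21.1% of all genes). Slc16a7, the high-affinity lactate and pyruvate carrier of sperm and neurons, rose in 2 steps. It read 2.1 and 2.8 at day 14, near the floor, then 49.7 and 114 at day 18, 45.4 and 125 at day 20, 1259 and 1386 at day 30 and 1294 and 1211 at day 35. At day 56 it was 1468 and 2111, against 3.1 and 11.5 at day 0 (6.28 ± 0.35, adjusted p = 2.73e-10). The step from day 14 to 20 was 2.33 ± 0.35, adjusted p = 0.0002, and that from day 20 to 35 was 3.77 ± 0.35, adjusted p = 4.05e-07. No sample before day 18 overlapped those of days 18 and 20, and none of these overlapped those of days 30 to 56. A dim probe set on type B rose by 1.85.

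Slc16a1, the widely expressed lactate carrier, peaked in the middle of the course instead. Its day means were 20.6, 28.1, 41.6, 48.2, 79.6, 79, 61.6, 43.8, 23.9, 19.8 and 29.4. It was higher than at day 0 at days 10, 14 and 18 (1.38 ± 0.30, adjusted p = 0.00922 at day 10) and at day 56 it was 19.2 and 39.5, against 20.5 and 20.7 at day 0, which did not pass. Slc16a3, the carrier of lactate export from glycolytic cells, had its highest mean at the same day, 391 ± 77.5 at day 10 against 210.4 ± 21.5 at day 0 (SD, n = 2 each; 0.83 ± 0.27, adjusted p = 0.0755), and did not pass on any day. Slc16a9 fell to 116 and 42.8 at day 56, against 385 and 553 at day 0 (-2.44 ± 0.54, adjusted p = 0.00124). This rests on a probe set whose suffix marks lower specificity, and the other one of the gene, which was dim, changed by -0.63. Slc16a13 fell by 1.56 and Slc16a5 rose by 1.40 on the log2 scale. The call of Slc16a5 was lost with a constant of 1 and with 64, and its F-test over the course did not pass (adjusted p = 0.1001). Slc16a4 read 51.3 and 4.6 at day 20, against 184 and 133 at day 14 (-2.21 ± 0.68, adjusted p = 0.0264), a call lost without sample 2 of days 0 and 20.

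Basigin (Bsg), the membrane partner that carries the monocarboxylate carriers to the surface and lies outside the Slc naming, averaged 1700 ± 146 at day 56 and 771 ± 31.6 at day 0 (SD, n = 2 each; log2 change 1.12, adjusted p = 8.43e-05). Embigin (Emb), the alternative partner, changed by -0.595 and did not pass.

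**Figure D3:**
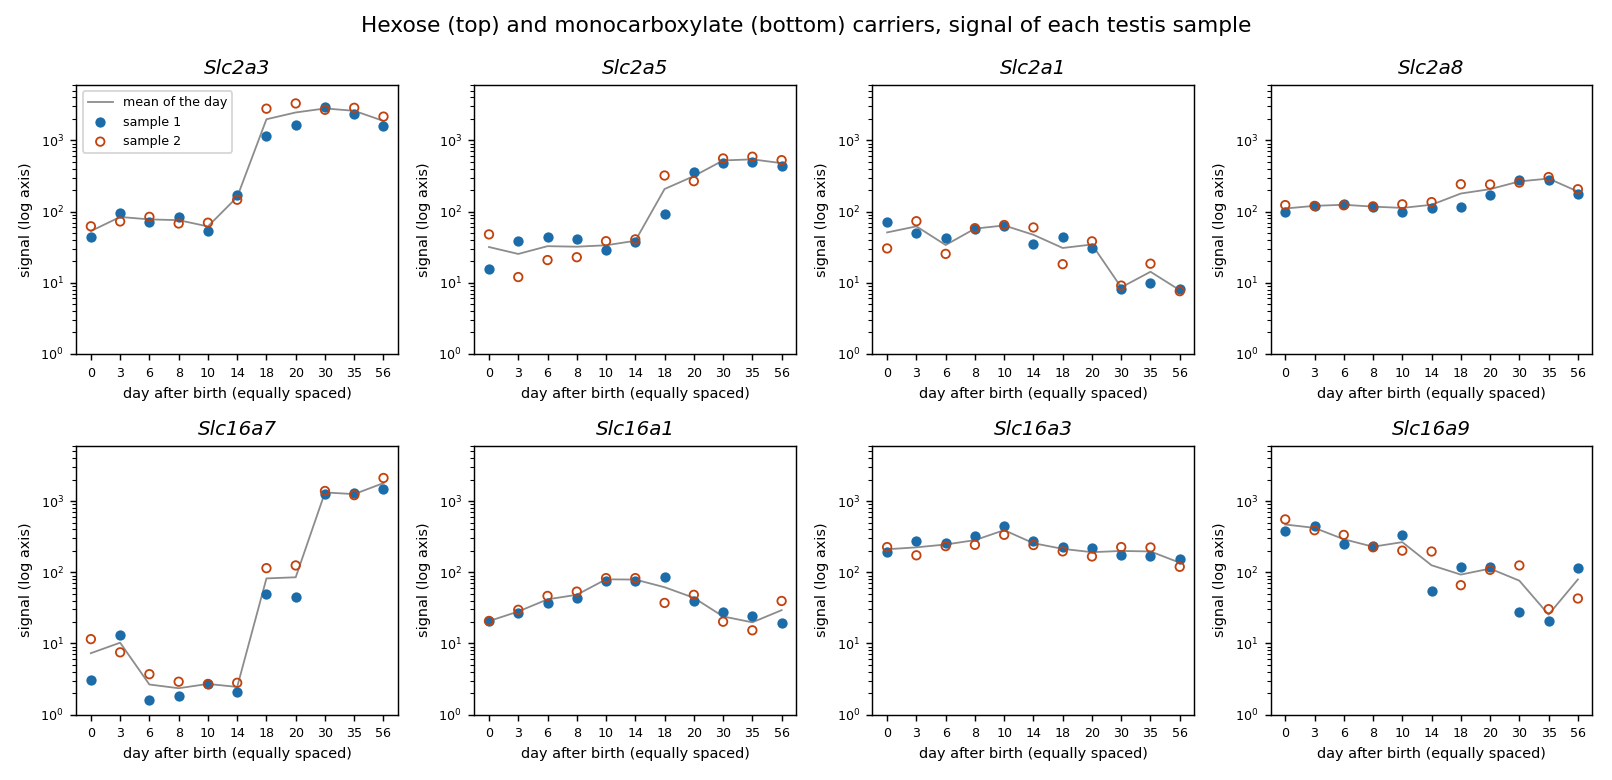
Signal on a log axis of each numbered sample by day after birth for 4 hexose carriers (top) and 4 monocarboxylate carriers (bottom), with the mean of each day as a line. Slc2a3 and Slc2a5 step up at day 18, Slc16a7 at days 18 and 30, Slc16a1 peaks at days 10 and 14, and Slc2a1 and Slc16a9 end below their day 0 level.

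Amino acid and peptide carriers, the largest family, had 5 higher and 13 lower of 42 at day 56, where 15.9% of all genes were higher and 21.1% lower, with a median log2 change of -0.49. Among the carriers of glutamine and neutral amino acids, Slc1a5 fell to 472 and 629.8 at day 56, against 1195 and 1674 at day 0 (-1.35 ± 0.28, adjusted p = 0.000615), and a second probe set fell by 1.46. The sodium-coupled carriers Slc38a1 and Slc38a2 fell by 1.5 and 1.16 on the log2 scale. Slc38a2 was highest around day 6 and read 359 and 333 at day 20, against 876 and 889 at day 14 (-1.31 ± 0.39, adjusted p = 0.0215), a call lost under scaling to the median and without any 1 of the 4 samples. Slc7a5, the leucine carrier, fell to 446 and 441 at day 56, against 931 and 945 at day 0 (-1.05 ± 0.36, adjusted p = 0.0239), a call that neither set of 1 sample of days 0 and 20 kept, and its F-test over the course did not pass (adjusted p = 0.541). Its heavy chain Slc3a2 was at 657 and 583 at day 56, against 1262 and 962 at day 0, a change of -0.82 that stayed under 2-fold. Slc7a1, the arginine and lysine carrier, fell to 125 and 128 at day 56, against 306 and 409 at day 0 (-1.38 ± 0.21, adjusted p = 4.11e-05). Among the remaining members of the family, Slc1a4 (-1.49), Slc36a4 (-1.41), Slc38a7 (-1.65), Slc38a10 (-1.38), Slc43a1 (-1.38) and Slc43a3 (-1.57) fell.

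The glutamate carrier Slc1a6 fell early and stayed down. Its day means were 206, 194, 202, 121, 68.5, 24.6, 13.6, 9.4, 11, 13.5 and 15.6, and the samples read 14.5 and 34.8 at day 14, against 123 and 119 at day 8 (-1.80 ± 0.27, adjusted p = 0.00101). At day 56 it was 18.6 and 12.6, against 241 and 172 at day 0 (-2.80 ± 0.27, adjusted p = 1.92e-07). Slc1a3, the glial glutamate carrier, read 13 and 35.5 at day 56, against 34.2 and 32.5 at day 0, and did not pass against day 0 on any day. Slc6a17, a vesicular amino acid carrier of neurons, read 38.7 and 101 at day 20, against 197 and 244 at day 14 (-1.55, lost without sample 1 of days 0 and 20), and had fallen by 1.61 at day 56.

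Of the 5 that rose, Slc7a6 was called from day 8 on, Slc43a2 from day 10, and Slc36a3, Slc38a9 and Slc1a2 from day 30. Slc7a6, an exchanger of basic and neutral amino acids, was the only Slc gene up by day 8, with 64.5 and 57 at day 8, against 13 and 15 at day 0 (1.35 ± 0.24, adjusted p = 0.00388), and it read 65.9 and 56.8 at day 56. Slc36a3, a member of the proton-coupled amino acid carriers, was flat up to day 20, at 32.6 and 24.8, and then 739 and 765 at day 30. It read 679 and 769 at day 56, against 26.9 and 29.7 at day 0 (4.06 ± 0.31, adjusted p = 8.45e-09). Slc38a9, the lysosomal arginine sensor, read 637 and 626 at day 56, against 91.8 and 79.5 at day 0 (2.67), but 2 of its other 4 probe sets changed by -0.91 and -0.58, and the call was lost without suffixed probe sets. Slc43a2 and Slc1a2 rose by 1.55 and 1.51. The other probe sets of Slc43a2 changed by 0.01 and 0.49, and its call was lost under the mean of probe sets. The other one of Slc1a2 changed by 0.03, and the F-test of this gene over the course did not pass (adjusted p = 0.243). Among the 10 carriers of neurotransmitters and osmolytes Slc6a8 changed by -0.67 at day 56 and was not called, but its dimmer probe set on type A fell by 3.43. A dim probe set of Slc17a7 rose by 1.91, where the one used changed by -0.15. The taurine carrier Slc6a6 was called. Its means fell to 56.8 at day 20, against 317 at day 0 (-2.16 ± 0.29, adjusted p = 1.77e-05), and were 154, 183 and 130.3 at days 30, 35 and 56, with a rise from day 20 to 35 (1.45 ± 0.29, adjusted p = 0.00225). Its dim second probe set changed by 1.00 between days 0 and 56, where the one used fell by 1.15.

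Of 40 carriers of inorganic ions 3 rose and 7 fell at day 56 (15.9% and 21.1% of all genes). Slc9b1, a sodium-proton exchanger of the sperm flagellum, rose to 2104 and 1808 at day 56, against 6.5 and 8.9 at day 0 (6.38 ± 0.47, adjusted p = 6.13e-09). Its step came between days 14 and 18, with 1395 and 697 at day 18, against 103 and 88.4 at day 14, and at day 20 it was 1251 and 1236 (day 14 to 20: 3.50 ± 0.47, adjusted p = 7.05e-05). Both its probe sets carry such a suffix, and the dim second one changed by 0.51. Slc34a2, a sodium-phosphate cotransporter, read 156 and 168 at day 56, against 12.2 and 8.7 at day 0 (2.75 ± 0.36, adjusted p = 8.07e-06). All 12 samples up to day 14 lay under 13, and its means were 78.8, 101, 219, 216 and 162 from day 18 on. Slc13a5, which carries citrate and was placed here with its sulfate-carrying relatives, read 214 and 232 at day 56, against 52.5 and 36.7 at day 0 (1.99), with its highest mean, 301, at day 20.

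The widely expressed phosphate carriers fell where Slc34a2 rose. Slc20a2 fell to 27.6 and 78.8 at day 56, against 374 and 553 at day 0 (-2.87 ± 0.32, adjusted p = 7.7e-07), in steps of -1.14 from day 14 to 20 and -1.62 from day 20 to 35. The call of the first of these was lost with a constant of 64, under scaling to the median and without any 1 of the 4 samples. Slc20a1 fell to 69.9 and 98.3 at day 56, against 210.1 and 375 at day 0 (-1.58). By the probe sets used, the largest fall of the Slc genes on this scale was that of Slc12a4, a potassium-chloride cotransporter that regulates cell volume. It fell to 119 and 19.8 at day 56, against 646 and 831 at day 0 (-3.43 ± 0.54, adjusted p = 4.55e-05). Its samples of days 30 and 56 differed widely, with 143 and 28.3 at day 30. The probe set used carries a suffix of lower specificity, and a plain one fell by only 1.58, so the rank rests on the first. Slc12a2, the sodium-potassium-chloride cotransporter without which mouse spermatogenesis fails, read 61.5 and 152 at day 20, against 270.4 and 342 at day 14 (-1.49 ± 0.33, adjusted p = 0.00412), lost without sample 1 of days 0 and 20. Against day 0 it was lower at days 20, 30 and 35, and at day 56 (88.4 and 133, against 159 and 285 at day 0) the change of -0.88 was under 2-fold. Slc8a1, the sodium-calcium exchanger, fell to 37.1 and 22.5 at day 56, against 179.8 and 198 at day 0 (-2.18). The anion exchanger Slc4a2 fell to 139.9 and 129.5 at day 56, against 263 and 351 at day 0 (-1.09). This call of Slc4a2 was lost under scaling to the median and under quantile normalisation. Slc12a7 and Slc17a1 fell as well (-1.49 and -1.85), but the F-test of Slc17a1 over the course did not pass (adjusted p = 0.0592). Slc4a1, the anion exchanger of red cells, ranged over 140.1 to 224.9 with no call, while of the 3 of 9 erythroid markers measured Hba-a1 fell (mean 498 at day 56 and 6440 at day 0), Klf1 rose (163 at day 56 and 25.4 at day 0) and Alas2 was not called (101 at day 56 and 163 at day 0). Their summed signal, nearly all of it Hba-a1, was 646.1 to 879.2 at day 56 and 4702 to 8546 at day 0.

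Of 15 carriers of organic ions 3 rose and 1 fell at day 56 (15.9% and 21.1% of all genes). Slc22a14, a riboflavin carrier of sperm mitochondria that male mice need for fertility, gave 1747 and 2371 at day 56, against 8.9 and 8.4 at day 0 (6.38 ± 0.42, adjusted p = 1.53e-09). No sample up to day 20 exceeded 36.8, and those of day 30 were 2225 and 1630.1 and those of day 35 1950.1 and 2168 (day 20 to 35: 6.14 ± 0.42, adjusted p = 5.66e-09). The carnitine carriers Slc22a16 and Slc22a21 began earlier. Slc22a16 read 186 and 186 at day 56, against 22.1 and 8.5 at day 0 (2.72 ± 0.49, adjusted p = 0.00018), and its samples of day 18 were 132 and 23.3. Slc22a21 read 378 and 231 at day 56, against 58 and 13.9 at day 0 (2.73). A probe set of it on type A rose by 2.21, and one on type C changed by -0.43. Slc22a5, the general carnitine carrier, was called at day 35 alone and read 99.3 and 90.3 at day 56, against 34.9 and 72.6 at day 0 (0.72). Carnitine feeds fatty acids into mitochondria and is concentrated in sperm. The gene that fell was Slc22a17 (-1.53).

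Slc22a14 and Slc36a3 were low at day 20 and at their plateau by day 30. Slc35g3, an orphan relative of the nucleotide sugar carriers, read 579 and 717 at day 35, against 89.3 and 69.7 at day 20 (2.80 ± 0.24, adjusted p = 1.85e-07). All the elongating spermatid markers rose in that window too, with a sum of 43910 to 48960 at day 35 and 300.6 to 386.1 at day 20. Of the 8 round spermatid markers 6 rose, with a sum of 13000 to 15190 at day 35 and 885.4 to 1610 at day 20. Of 8 spermatocyte and 7 Leydig markers 2 each rose as well. The window cannot tell these cell types apart. Because Slc22a14, Slc36a3 and Slc35g3 move together, their upstream sequences are shown, with that of Slc9b1, called from day 14 on, for comparison. RefSeq's table (GRCm38.p6) held a start for 17 of the 26 risers, and a search of both strands of the 250 bases before it found the letters CCAAT in 6 of them, 35.3%, where 37.5% of 27025 genes have them. TGACG, the core of the cyclic AMP response element, was in 4 (23.5%, and 19.8% of all), its full form TGACGTCA in 0 (1.77% of all) and TATAAA in 0 (14.3% of all). A match is a description of letters and not a site. Slc22a14, Slc36a3 and Slc9b1 are among the 6 with CCAAT, and Slc35g3 holds none of the searched letters. The sequences are given 5′ to 3′ on the strand of the gene, with CCAAT or its complement ATTGG in capitals. They come from chr9:119190396-119190645 (minus strand), chr11:55151709-55151958 (minus strand), chr11:69761845-69762094 (minus strand) and chr3:135347779-135348028 (plus strand).
Slc22a14: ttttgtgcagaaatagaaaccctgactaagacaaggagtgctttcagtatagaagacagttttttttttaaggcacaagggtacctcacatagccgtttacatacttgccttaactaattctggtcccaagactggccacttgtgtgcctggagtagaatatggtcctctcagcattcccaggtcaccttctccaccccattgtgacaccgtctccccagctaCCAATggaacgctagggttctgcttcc
Slc36a3: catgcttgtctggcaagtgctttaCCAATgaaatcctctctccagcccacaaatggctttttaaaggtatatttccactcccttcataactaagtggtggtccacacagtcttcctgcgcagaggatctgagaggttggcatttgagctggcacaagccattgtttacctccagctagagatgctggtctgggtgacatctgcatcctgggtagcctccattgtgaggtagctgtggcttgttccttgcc
Slc35g3: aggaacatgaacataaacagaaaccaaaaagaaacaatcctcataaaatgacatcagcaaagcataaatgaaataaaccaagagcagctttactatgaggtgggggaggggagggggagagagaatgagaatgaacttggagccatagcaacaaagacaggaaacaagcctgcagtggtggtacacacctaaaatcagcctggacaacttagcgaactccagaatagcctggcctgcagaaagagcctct
Slc9b1: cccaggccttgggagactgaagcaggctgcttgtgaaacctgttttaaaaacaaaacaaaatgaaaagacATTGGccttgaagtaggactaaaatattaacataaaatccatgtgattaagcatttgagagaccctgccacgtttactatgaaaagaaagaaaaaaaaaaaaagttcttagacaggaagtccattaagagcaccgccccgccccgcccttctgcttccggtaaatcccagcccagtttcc

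**Figure D4:**
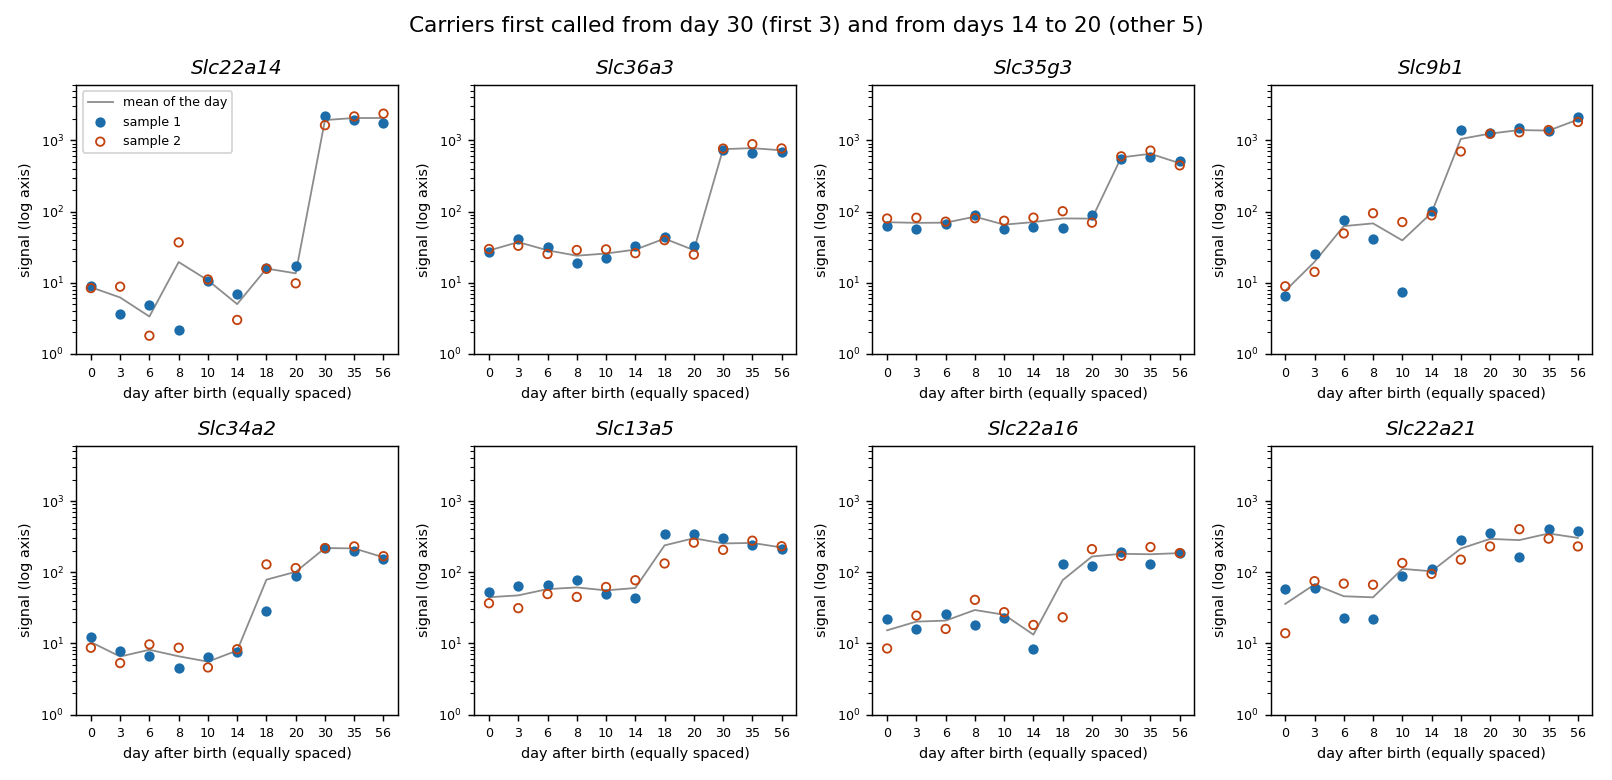
Signal on a log axis of each numbered sample by day after birth for 8 carriers that rose, with the mean of each day as a line. Slc22a14, Slc36a3 and Slc35g3 stay flat to day 20 and are high from day 30, while Slc9b1 was called from day 14 and Slc34a2, Slc13a5, Slc22a16 and Slc22a21 from day 18 or 20.

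By the probe sets used, no metal carrier of 27 had risen at day 56 and 7 had fallen, where 15.9% of all genes had risen and 21.1% had fallen. Dimmer probe sets of Slc30a1, Slc39a3, Slc39a8 and Slc39a14 changed by 1.18, 1.37, 1.02 and 1.06. Those used for these genes changed by -0.36, -0.26, 0.73 and -0.20. A dimmer one of Slc30a7 changed by -1.115, where the one used changed by -0.59. Slc39a7, which releases zinc from the endoplasmic reticulum, fell to 76.3 and 123 at day 56, against 582 and 532 at day 0 (-2.34 ± 0.27, adjusted p = 1.59e-06), in good part from day 20 to 35 (-1.5 ± 0.27, adjusted p = 0.000948). The iron exporter Slc40a1 fell to 61.5 and 107 at day 56, against 186 and 206 at day 0 (-1.12), a call lost under scaling to the median and under quantile normalisation. Slc39a1, Slc39a9, Slc30a2 and Slc30a5 fell by 1.24, 1.18, 1.05 and 1.06, and the calls of Slc30a2 and Slc30a5 were lost under both scalings as well. Slc39a4, the zinc carrier of gut, fell by 1.31, on a probe set with a suffix that marks lower specificity, and the other 2 probe sets changed by -0.56 and 0.06. Slc30a3, a vesicular zinc carrier, was at 857 and 793 at day 56, against 585 and 497 at day 0 (0.60, under 2-fold).

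Several metal and vitamin carriers had a hump in the juvenile testis that day 56 against day 0 does not show. Slc11a2, the iron importer, had means of 140.4, 129.5, 163, 210.2, 358, 358, 211, 193, 124, 134 and 99.8 over the 11 days, and its samples of day 10, 369 and 348, lay above those of day 0, 108 and 173 (1.29 ± 0.22, adjusted p = 0.00171). Slc30a4, a zinc carrier of vesicles, read 319 and 335 at day 14, against 84.2 and 137 at day 0 (1.47 ± 0.36, adjusted p = 0.0121), and then 46.6 and 152 at day 20 (day 14 to 20: -1.74). Slc31a1, the copper importer, read 665 and 561 at day 14, against 245 and 172 at day 0 (1.5 ± 0.30, adjusted p = 0.00294), and 209 and 307 at day 56. Slc19a2, a thiamine carrier that mouse germ cells need, peaked with 1029.7 and 1367 at day 10, against 581 and 562 at day 0 (1.03 ± 0.25, adjusted p = 0.0185). Slc52a3, a riboflavin carrier, peaked with 1821 and 1643 at day 14, against 761 and 893 at day 0 (1.05 ± 0.20, adjusted p = 0.00212).

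In all, 22 Slc genes were higher than at day 0 on some day and not at day 56, 8.7% of them, where 7.01% of all genes were, and 16 were lower on some day and not at day 56, where 7.55% of all genes were. At day 10, 11 Slc genes were called higher, where 2.75% of all genes were, and 4 lower (background 2.09%). Of these 11, 9 were not called at day 56: Slc2a12, Slc6a14, Slc11a2, Slc16a1, Slc19a2, Slc25a18, Slc25a32, Slc30a4 and Slc31a1. They were chosen after their values were seen, and no test sets this group against other genes. The amino acid carrier Slc6a14 read 113 and 135 at day 10, against 7.3 and 14 at day 0 (2.40 ± 0.52, adjusted p = 0.00982), with 1 high sample at day 3, 153, beside 32.4. The remaining 132 of the 253 genes had no call against day 0 on any day, where 6583 of all 13472 genes had none.

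Of 34 carriers of nucleosides, nucleotide sugars and vitamins 2 had risen and 5 had fallen at day 56 (15.9% and 21.1% of all genes). The risers were Slc35a3, which brings UDP-N-acetylglucosamine into the Golgi, with 702 and 549 at day 56, against 60.8 and 79.6 at day 0 (2.89), and its relative Slc35a5 with 732 and 649 at day 56, against 95.8 and 103 at day 0 (2.61). Both rest on probe sets with a suffix of lower specificity, and the plain ones of these genes changed by 0.82 and 0.04 for Slc35a3 and 0.39 for Slc35a5. Slc35a1, the carrier of CMP-sialic acid, fell to 22.8 and 25.4 at day 56, against 112 and 154 at day 0 (-1.88 ± 0.33, adjusted p = 0.000148). Slc35b4, Slc35e3, Slc35f5 and the ascorbate carrier Slc23a2 fell by 1.46, 1.22, 1.02 and 1.22. The other probe sets of Slc35b4 changed by -0.05, -0.06, -0.38, -0.50 and -1.12. Its call was lost under the mean of probe sets, and that of Slc35f5 under scaling to the median and under quantile normalisation. Slc29a1, a nucleoside carrier, changed by -0.78, under 2-fold.

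Of 38 mitochondrial carriers 5 were higher and 10 lower at day 56, where 15.9% of all genes were higher and 21.1% lower. The ADP/ATP exchangers of somatic cells fell. Slc25a4 read 490.3 and 406 at day 56, against 1302 and 3422 at day 0 (-2.20 ± 0.39, adjusted p = 0.000168). The day 0 samples differed by far and the probe set used carries a suffix of lower specificity, but a plain probe set on type A fell by 2.17. Slc25a5, on the X chromosome, read 147 and 88.6 at day 56, against 440.2 and 350.4 at day 0 (-1.65 ± 0.31, adjusted p = 0.000287), while a dim second probe set changed by -0.20. Both carry a suffix of lower specificity, and the call was lost under the mean of probe sets (-0.92, under 2-fold). Slc25a31, their germ cell form, was not analysed here. Slc25a11, which exchanges oxoglutarate and malate, fell to 77.1 and 76 at day 56, against 471 and 174 at day 0 (-1.72), and Slc25a51, which imports NAD, to 64.3 and 22.1 at day 56, against 157 and 279.6 at day 0 (-2.03). Slc25a15, Slc25a16, Slc25a22 and Slc25a47 fell as well (-1.12, -1.36, -1.27 and -1.12). Slc25a22 reached a signal of 50 on only 2 arrays, and its F-test over the course did not pass (adjusted p = 0.0579).

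The risers were led on this scale by Slc25a46, a protein of the outer membrane that acts in mitochondrial shape, with 928 and 709 at day 56, against 116 and 89.4 at day 0 (2.81 ± 0.32, adjusted p = 1.16e-06). Its other 2 probe sets changed by 0.40 and 0.92. Slc25a39, the glutathione importer, read 2060.4 and 2199 at day 56, against 701 and 485 at day 0 (1.84 ± 0.24, adjusted p = 7.46e-06), and rose by 1.34 from day 14 to 20. Slc25a33, a pyrimidine nucleotide carrier, read 791 and 864 at day 56, against 139 and 229.9 at day 0 (2.11 ± 0.39, adjusted p = 0.000215), and its dim probe set on type C changed by -0.46. Slc25a35 and Slc25a41 rose by 1.87 and 1.80, the second of these lost without sample 1 of days 0 and 20. The F-test of Slc25a35 over the course did not pass (adjusted p = 0.118). Slc25a20, which brings acylcarnitines into mitochondria, was called higher than at day 0 at day 20 alone, and read 505 and 268 at day 20, against 183 and 133 at day 14 (1.16 ± 0.31, adjusted p = 0.0125), a call lost without sample 1 of days 0 and 20.

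Slc25a37, the iron importer of red cell precursors, read 25.1 and 32.7 at day 56, against 145 and 111 at day 0 (-1.67), and 15.8 and 14.7 at day 35, against 83.1 and 79.8 at day 20 (-1.64 ± 0.33, adjusted p = 0.00236). Day 20 stood above day 18 (27.5 and 56.1). The mean of Hba-a1, which makes up nearly all of the erythroid sum, came to 1660, 3570 and 637 on days 18, 20 and 35, while Alas2 was at 42.5, 85.9 and 92.2 and Klf1 at 80, 64.6 and 49.4 on these days. The summed signal was 1774 to 1794, 2227 to 5215 and 634.8 to 923.1, and its part in the course of Slc25a37 was not tested. The 2 dimmer probe sets of Slc25a37 changed by 0.36 and 0.78 between days 0 and 56. Slc25a53, an X-linked orphan carrier, read 81 and 52.2 at day 56, against 350.2 and 424 at day 0 (-2.30), on a suffixed probe set, and its plain one, which was dim, changed the other way, by 0.83, with an unadjusted p of 0.0218 in limma.

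**Figure D5:**
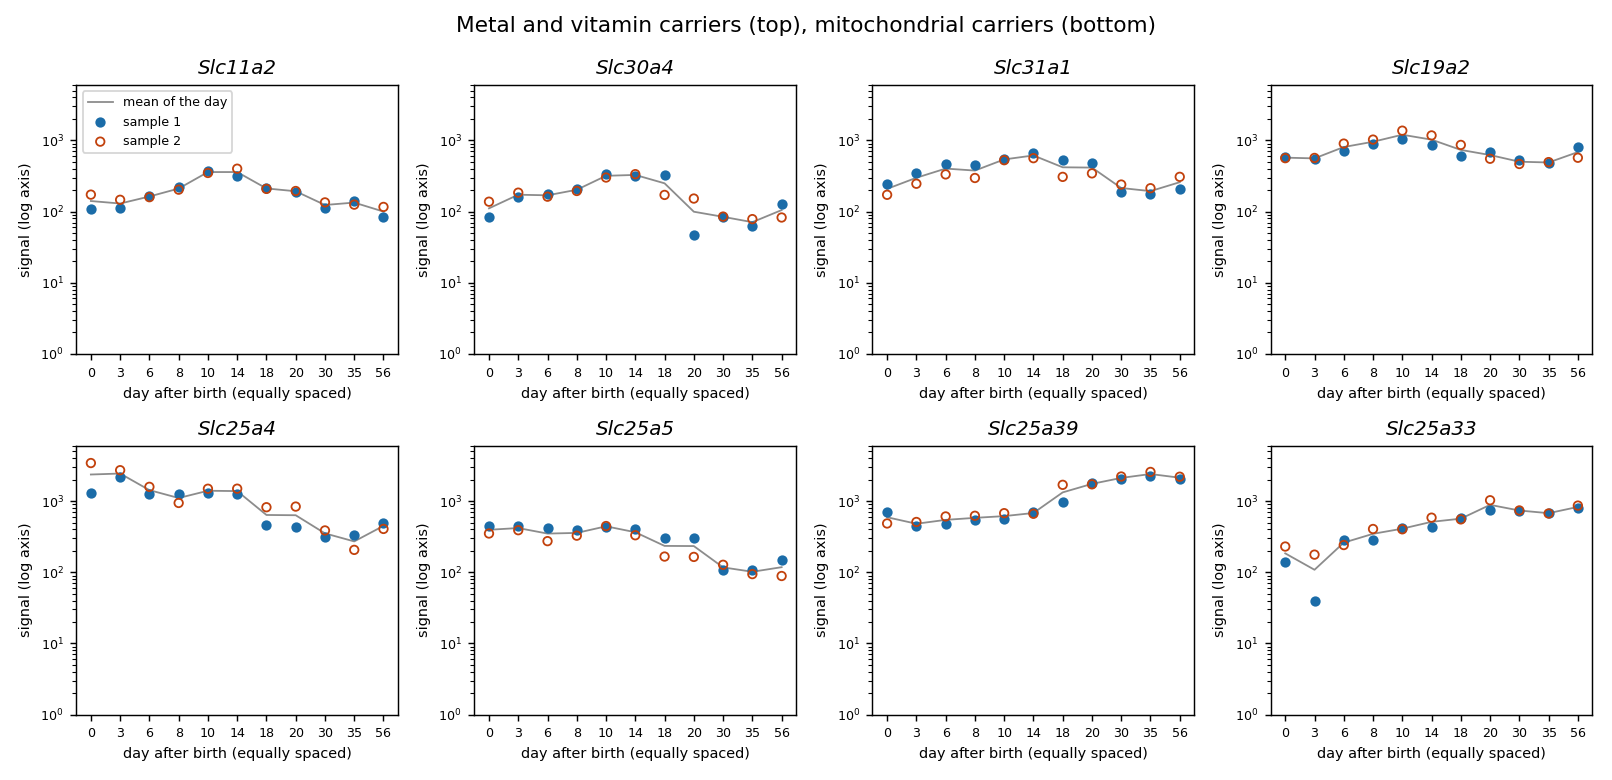
Signal on a log axis of each numbered sample by day after birth for 3 metal carriers and the thiamine carrier Slc19a2 (top) and 4 mitochondrial carriers (bottom), with the mean of each day as a line. The top row is highest at days 10 to 14, and in the bottom row Slc25a4 and Slc25a5 end below their day 0 level and Slc25a39 and Slc25a33 above it.

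Of 7 carriers of fatty acids and choline none rose and 3 fell at day 56 (15.9% and 21.1% of all genes). Slc27a3, an acyl-CoA synthetase of the fatty acid transport family, was down from day 8, with 66.2 and 123 at day 8, against 264 and 206 at day 0 (-1.22 ± 0.32, adjusted p = 0.0456), a call lost without sample 1 of days 0 and 20, and at day 56 it read 39.3 and 44 (-2.11). The choline carriers Slc44a1 and Slc44a2 fell by 1.24 and 1.42. Among the 9 carriers outside these groups Slc35g3, the urea carrier Slc14a2 and Slc66a2 rose, with Slc14a2 at 501 and 446 at day 56, against 136 and 217 at day 0 (1.38). Slc35g1, Slc49a4 and the lysosomal amino acid exporter Slc66a1 fell by 1.05, 1.33 and 1.59, with the call of Slc35g1 lost under both scalings. Slc7a6os, a gene opposite to Slc7a6 that encodes no carrier, rose by 1.08.

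Of 27 listed carrier genes and partners whose names lie outside the rule 16 were measured, 3 of which rose and 2 fell at day 56 (15.9% and 21.1% of all genes). Besides Bsg these were the ammonia channel Rhcg (2.73) and the mitochondrial Mtch2 (2.57) among the risers, and Mtch1 (-1.19) and the organic anion carrier Slco2b1 (-1.44) among those that fell. Of the 8 Slc genes on the X chromosome none rose and 2 fell, Slc25a5 and Slc25a53, and of the 245 on autosomes 26 rose and 55 fell, where 15.9% of all genes rose and 21.1% fell. With 8 genes nothing particular to the X chromosome is shown. Across the 30 called genes with further kept probe sets, 43 of 53 of these had the same sign at day 56 as the one used and 10 the opposite, in Slc2a3, Slc6a6, Slc22a21, Slc25a33, Slc25a37, Slc25a53, Slc38a9 and Slc39a4.

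The calls at day 56 that were lost without sample 1 of days 0 and 20 were those of Slc1a2, Slc2a1, Slc7a5, Slc25a22, Slc25a41, Slc30a2, Slc35g1, Slc38a2, Slc39a4, Slc39a9, Slc44a1, Slc66a1 and Slc66a2. Without sample 2 of both days the lost calls were those of Slc4a2, Slc6a6, Slc7a5, Slc7a6os, Slc16a5, Slc23a2, Slc25a15, Slc30a5, Slc35e3, Slc35f5, Slc43a1, Slc43a3, Slc45a1 and Slc45a4. Scaling to the median and quantile normalisation each lost the day 56 calls of Slc4a2, Slc30a2, Slc30a5, Slc35f5, Slc35g1 and Slc40a1. Scaling to the median also lost those of Slc7a5, Slc38a2 and Slc45a4. The 57 Slc genes below the signal filter had highest signals of 8.1 to 83.4, and 13 of them reached 50 on 1 array. Among them were the anion exchanger Slc26a3, the sodium-proton exchanger Slc9a3, the phosphate carrier Slc34a1, the inositol carrier Slc5a3, the macrophage metal carrier Slc11a1 and the fatty acid carrier Slc27a2, so no course can be given for these. Slc26a8 was not analysed here.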

How the data were processed

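The arrays are 1-colour oligonucleotide arrays of total testis RNA. The deposited values are signal intensities, each array scaled by the authors to a mean signal of 125, per the labels; the trimmed mean (2% at each end) of the columns was 125 to 125.1. The signal software is not given in the sources used here. Probe sets were named from the platform annotation: 29131 of 36899 name 1 gene, and 26941 reached a signal of 50 on 2 or more of the 22 arrays of their type. The brightest probe set stood for a gene. For 33 Slc genes it carries a suffix that marks lower specificity, which is not stated above for each of them. Those of Slc1a5, Slc22a21, Slc30a5 and Slc43a3 are among these. Array types were fitted separately on log2(signal + 16) with a mean per day (limma 3.58.1, R 4.3.3, lmFit and eBayes with trend, 11 residual degrees of freedom), and p-values were adjusted by Benjamini-Hochberg over 13472 genes. The procedure was tested on simulated data. The number of arrays limits the precision.

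The members, lists and tests were chosen with earlier results of these data known. Genes named in full were drawn from a list of the 10 largest rises and falls from day 0 to 56, the 6 largest of each other window, the 2 of highest signal in a family, and carriers with textbook roles. Some of this list are left out, namely Slc9a3r1, Slc9a3r2, Slc13a4, Slc17a6, Slc22a18, Slc25a1, Slc25a36 and Slc27a1. They were not called at day 56 against day 0, so the genes named lean towards those that changed. Other called genes are named to complete a family's count, after their values were seen, and genes called on passing days likewise. Sample numbers were checked for pairing: the deviations of same-numbered samples correlated above 0.1 in 28, 34 and 23 of 55 pairs of days on types A, B and C. The highest values were those of days 0 and 20, at 0.547, 0.388 and 0.292. Samples of the same number thus share deviations on part of the days, from a source the labels do not give. The main fit holds no term for the number, and a fit with it as a block is given as an alternative. Alternatives were the added constant, the signal filter, the scaling, the choice of probe set, the sample number as a block and leaving out samples. Promoter sequences are RefSeq's, on GRCm38.p6.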

Additional observations from a re-analysis of the deposited data

How the results depend on the processing

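Of the 83 changes named by rule, 43 were called under all 34 settings. With a constant of 1 in place of 16, 2 genes were higher and 1 lower at day 8 than at day 0. With 64 these counts were 0 and 1, and 7 genes fell from day 14 to 20, 4 from day 20 to 35, and 30 from day 0 to 56, which is also the count of lasting falls. Without a signal filter 1 gene was lower at day 8, and with a filter of 125 none (0) was higher. Quantile normalisation gave 3 higher at day 8, scaling to the median 8 falls from day 14 to 20, and the mean of probe sets 2 higher at day 8 and 4 falls from day 20 to 35. Leaving out suffixed probe sets gave 1 rise from day 8 to 14. The sample number as a replicate block gave 2 higher at day 8 and kept all 83 calls of day 56 against day 0. Leaving out sample 1 or, in turn, sample 2 of days 0 and 20, chosen after seeing the data, gave 3 higher at day 8 and 1 rise from day 8 to 14 each. Leaving out each sample in turn gave 120 to 134 genes over the course, 0 to 2 higher and 0 to 3 lower at day 8, 0 to 1 rises and 1 fall from day 8 to 14, 10 to 14 rises and 4 to 17 falls from day 14 to 20, 7 to 12 rises and 4 to 11 falls from day 20 to 35, none (0) from day 35 to 56, and 23 to 30 rises and 52 to 57 falls from day 0 to 56, the same ranges as for lasting rises and falls. The sign turned for Slc25a37 at day 56 with the filter of 125 (0.36), and, without suffixed probe sets, for Slc35a3 (-0.36) and Slc39a4 (0.31) from day 20 to 35 and Slc25a53 (0.83) and Slc38a9 (-0.91) at day 56, where another probe set took the place of the one used. The call of Slc2a5 at day 56 was lost under the mean of probe sets. Signals near the floor limit what can be seen of dim carriers.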
